A study of Homo sapiens with 24 samples.

Results

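The response of T47D-Y cells to interferon-alpha (IFN) in the absence of the synthetic progestin R5020 was described across all genes. T47D is a human luminal breast cancer cell line, and T47D-Y is a derivative labelled as lacking the progesterone receptor (PR). The libraries were chosen by label alone: 3 libraries of T47D-Y given IFN and then the ethanol (EtOH) vehicle were set against 3 libraries of T47D-Y given water and then EtOH, which makes 6 of the 24 libraries of the series. IFN was applied at 20 IU/ml for 18 hours and was followed by EtOH for 6 hours, and the water group had the same times. The other libraries were T47D-Y given R5020 at 10 nM for 6 hours, with or without IFN, and the PR-positive derivative T47D-co under the same treatments, each group with 3 libraries that the series describes as biologic triplicates. Each derivative is a single line, so a difference between T47D-Y and T47D-co cannot be told apart from any other difference between these lines. Although labelled PR null, T47D-Y had PGR, the gene of the progesterone receptor, at 709, 650 and 719 scaled fragments in the water libraries and at 642, 651 and 676 in the IFN libraries, against a mean of 26480.0 in T47D-co given water and EtOH. PGR did not pass the test for a change with IFN in T47D-Y (log2 difference -0.08, standard error 0.05, limma adjusted p = 0.468).

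Type I interferons bind a receptor made of IFNAR1 and IFNAR2, whose kinases JAK1 and TYK2 phosphorylate STAT factors. These join IRF9 to form a factor that enters the nucleus and binds interferon-stimulated response elements, short sequences with repeated GAAA or TTTC blocks in the promoters of interferon-stimulated genes. Many of those genes encode proteins that degrade viral RNA, block translation or entry, sense nucleic acid, or feed back on the pathway, and epithelial cells including breast tumour cells express the receptor.

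The promoters of 8 genes among the largest rises are shown because a block of this kind lay just before the start. The windows come from RefSeq promoters on build GRCh38.p14, are written 5′ to 3′ on the strand of the gene, and have every match in capitals to the response-element motif searched: TTTC, then any 2 bases, then TTTC, which on the other strand reads GAAA, any 2 bases, GAAA.
ISG15, chr1:1013360-1013429, plus strand: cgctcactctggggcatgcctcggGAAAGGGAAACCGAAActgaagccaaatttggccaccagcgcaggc
IFI6, chr1:27672246-27672315, minus strand: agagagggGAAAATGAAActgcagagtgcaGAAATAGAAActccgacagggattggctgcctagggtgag
IFIT1, chr10:89392490-89392559, plus strand: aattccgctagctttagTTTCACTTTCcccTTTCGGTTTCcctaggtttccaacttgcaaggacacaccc
DDX60, chr4:168318766-168318835, minus strand: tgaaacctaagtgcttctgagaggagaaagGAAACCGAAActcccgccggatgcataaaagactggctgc
IFI27, chr14:94110611-94110680, plus strand: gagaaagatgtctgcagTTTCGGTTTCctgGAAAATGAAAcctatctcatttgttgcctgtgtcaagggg
IFIT3, chr10:89327845-89327914, plus strand: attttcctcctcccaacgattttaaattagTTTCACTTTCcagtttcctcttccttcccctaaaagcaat
IFI44L, chr1:78620345-78620414, plus strand: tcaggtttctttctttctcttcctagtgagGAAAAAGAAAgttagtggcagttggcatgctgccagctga
SAMD9, chr7:93118076-93118145, minus strand: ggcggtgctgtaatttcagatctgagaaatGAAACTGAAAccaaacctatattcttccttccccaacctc
The near edge of the match used to place the window lay between 43 bases (DDX60) and 126 bases (SAMD9) before the annotated start. ISG15 held overlapping matches that run together, and IFI27 held a match on each strand.

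Over whole promoter windows, which ran from 250 bases before to 50 bases after the start, this motif was found on either strand in 996 of 27305 windows (3.65%). Among genes tested here that had a window, the share was 2.7%. It was 29 of 53 (54.7%) among genes raised at least 2-fold with IFN, 13 of 19 (68.4%) among those raised at least 8-fold, and 16 of 34 (47.1%) among those raised 2- to 8-fold. Genes raised by less than 2-fold held it in 5.41% of 314 windows and lowered genes in 4.5% of 200. A second motif, TTCNNNGAA, the gamma-activated site that STAT dimers bind, was in 10 of the 53 windows (18.9%) against 7.88% of all windows and 6.48% of those of tested genes. A match is a description of the letters only. Large rises without the first motif in this window included OAS1, SAMD9L and XAF1. MX1, DDX60L, IFI44, IFITM3 and OAS3 also held it and are not among the sequences shown.

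The 6 libraries held 14141309 to 21731171 estimated fragments assigned to genes. Their log2 profiles correlated across genes at 0.9826 to 0.9858 within a group and at 0.9807 to 0.9837 between groups. In T47D-Y given water and EtOH, replicate 1 had 0.942% of its fragments on mitochondrial transcripts, against 3.80% to 4.47% in the other 5 libraries, and 3 libraries of other groups were similarly low. All of these low libraries were given water, and no IFN library of the series was low. This trait therefore lies only on the water side of the IFN comparisons. Of 10 luminal epithelial markers 9 passed the filter on low values, including EPCAM, KRT8, KRT18, GATA3 and FOXA1, and none was called in either direction, with a median log2 difference of 0.04. Of 4 basal epithelial markers 3 passed the filter and none was called: KRT5 (log2 difference -1.26, limma adjusted p = 0.137), TP63 (0.21) and VIM (-0.11). Markers of leukocytes, fibroblasts and endothelium were mostly under the filter on low values or had no entry. In bulk RNA a difference in how many cells express a gene cannot be told apart from a difference in RNA per cell.

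IFN raised a compact set of genes strongly and many others slightly. Of 20159 genes tested, 506 (2.51%) were called higher and 390 (1.93%) lower in IFN-treated than in water-treated T47D-Y, by limma at a Benjamini-Hochberg adjusted p under 0.05 on log2 scaled fragments. Of these, 85 (0.422%) rose at least 2-fold, 45 at least 4-fold, 23 at least 8-fold and 10 at least 16-fold, whereas 30 (0.149%) fell at least 2-fold. The values of the 2 groups did not overlap for 83 of the 85 strongly raised genes, against 11.4% of all tested genes that were higher without overlap. The 85 were chosen by call and fold change in these same libraries, so this share is largely fixed by that choice. The lists of interferon-related genes held 226 symbols, of which 167 were tested: 87 were called higher and none lower at an adjusted p under 0.05. The shares over all tested genes, 2.51% higher and 1.93% lower, are the background for each list count below. The 87 members called higher span rises of all sizes. List members made up 60 of the 85 genes raised at least 2-fold. Those 60 genes together took 0.0724% to 0.0754% of the fragments of tested genes in the water libraries and 0.302% to 0.335% in the IFN libraries.

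The counts of smaller changes depended on single libraries. Without replicate 2 of the water group 331 genes were called higher and 243 lower, without replicate 3 of the IFN group 322 genes were called higher, and without replicate 1 of the water group, the library low in mitochondrial transcripts, 254 were called lower. The number raised at least 2-fold stayed between 77 and 93 when any of the 6 libraries was left out.

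ISG15, a ubiquitin-like protein that is conjugated to other proteins and also secreted, had the largest rise among genes named by rule. It stood at 9.92, 14.0 and 12.8 scaled fragments in the water libraries and at 525, 597 and 554 in the IFN libraries, with no overlap, a 42.6-fold rise (log2 difference 5.41, standard error 0.15, limma adjusted p = 6.15e-19). All 6 tested members of its pathway rose at least 2-fold. UBA7, its activating enzyme, rose by 2.06 on the log2 scale, UBE2L6, its conjugating enzyme, by 2.11, and the ligases HERC5 and HERC6 by 1.41 and 2.14. USP18, which removes ISG15 and also blocks the receptor, went from 58.7, 50.6 and 67.0 to 145, 197 and 184 scaled fragments. Its rise of 1.56 (log2) was the smaller end of this pathway together with HERC5.

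**Figure D1:**
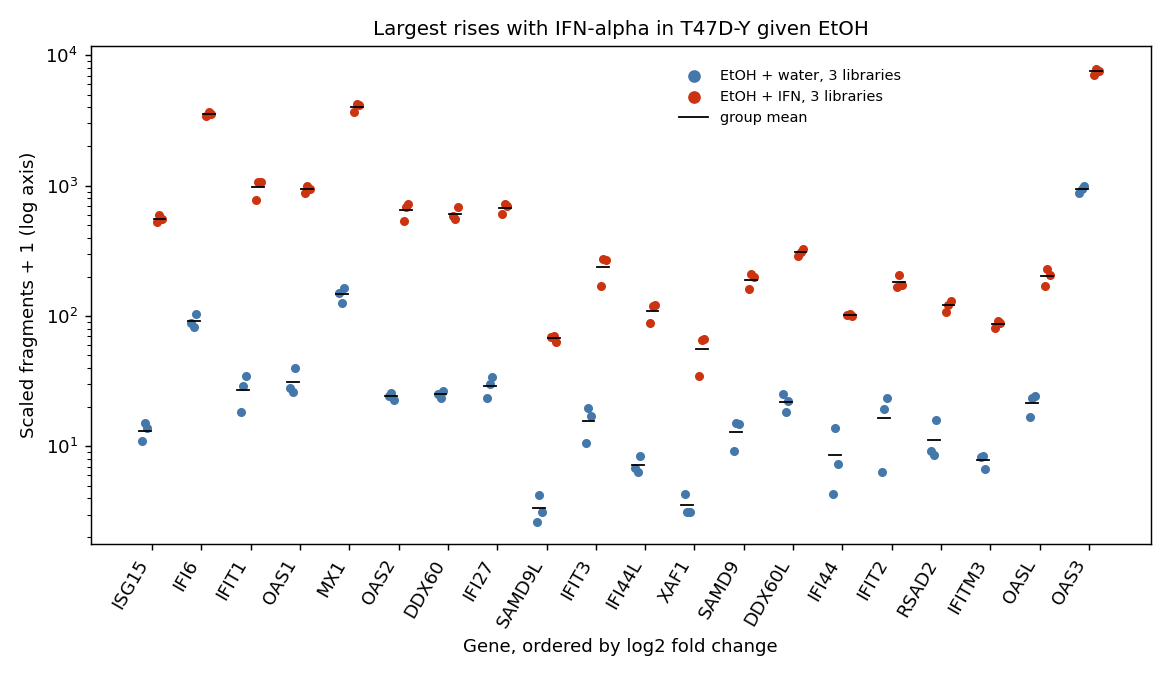
Scaled fragments plus 1 on a log axis for the 20 genes with the largest rises, in the 3 water (blue) and 3 IFN (red) libraries of T47D-Y given EtOH, with group means as lines. Genes whose groups overlap were left out of this choice, so all 3 IFN libraries lie above all 3 water libraries for each of the 20 by selection. They run from ISG15 (12.2 to 559 on average) to OAS3 (935 to 7532).

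Genes that act on RNA and translation rose together. Among the IFIT, OAS and PKR genes 9 of 10 tested were called higher, each at least 2-fold, with a median log2 difference of 3.46 against -0.001 over all tested genes. IFIT1, which binds foreign capped RNA and blocks its translation, was at 17.5, 27.9 and 33.6 in water and at 775, 1074 and 1067 with IFN. OAS3, an oligoadenylate synthetase that activates RNase L, was already the most abundant of the largest rises in water, at 875, 935 and 994, and reached 7114, 7913 and 7569. OAS1 rose by 4.94 and OAS2 by 4.74 on the log2 scale, while OASL, an enzymatically inactive relative, rose by 3.24. These genes lie in clusters, and the authors' table gives IFIT1, IFIT2 and IFIT3 a locus that they share with LIPA, a lysosomal lipase at a mean of 855.4 in water and 1103.0 with IFN. The sum of these 4 entries, most of it LIPA in water, rose by 1.45 (log2, adjusted p = 1.56e-16). OAS1, OAS2, OAS3 and the unmatched entry RP1-71H24.1 share another, and their sum, most of it OAS3, rose by 3.20 (adjusted p = 6.69e-26).

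The IFI genes had 6 of 8 tested members called higher, with a median log2 difference of 3.07. IFI6, a small mitochondrial and endoplasmic reticulum protein that limits apoptosis and flavivirus replication, went from 87.1, 81.9 and 103 to 3433, 3666 and 3559 scaled fragments. That 38.9-fold rise had the smallest adjusted p of the named genes (3.73e-23, limma). IFI27 rose by 4.55, IFI44L by 3.93, IFI44 by 3.74 and IFI35 by 2.41 on the log2 scale. IFI16, a DNA sensor, was at 0.826, 0 and 0 in water and 3.45, 5.4 and 3.95 with IFN, so its call rested on a handful of fragments and was lost when any of 4 libraries was left out (adjusted p from 0.0518 to 0.0795).

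Restriction factors, which block single steps of viral growth, had 15 of 20 tested members called higher with a median of 1.42 (log2). MX1, a dynamin-like GTPase that traps viral ribonucleoproteins, was at 150, 125 and 163 in water and at 3665, 4228 and 4187 with IFN. Its neighbour MX2 rose by 1.31. SAMD9L and SAMD9, adjacent genes on chromosome 7, rose by 4.36 and 3.89. RSAD2 (viperin, which makes a chain-terminating nucleotide) and its neighbour CMPK2 rose by 3.48 and 3.05, and IFITM3, which blocks fusion in endosomes, by 3.48. BST2 (tetherin) and SAMHD1, a dNTP hydrolase, were among the genes raised at least 2-fold. ISG20, SLFN11, SLFN12, APOBEC3A and APOBEC3B were tested and not called.

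Sensors of nucleic acid were also raised: 9 of 14 tested were called higher. DDX60, a helicase that assists RIG-I, went from 24.0, 22.6 and 25.5 to 588, 558 and 679, a 24.3-fold rise, and its neighbour DDX60L rose by 3.83 (log2). The RNA helicase DDX58 (RIG-I) was at 296, 341 and 354 in water and at 1126, 1295 and 1240 with IFN. IFIH1 (MDA5) rose by 2.05 and DHX58 (LGP2), a regulator of both, by 2.22. TLR3, an endosomal receptor of double-stranded RNA, was called in the fit (log2 difference 1.35, adjusted p = 0.0454) and its call was lost whenever any of the 6 libraries was left out, at an adjusted p up to 0.155.

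Among the PARP genes 5 of 13 were called higher, all at least 2-fold: PARP9 (2.42), PARP14 (2.39), DTX3L (1.87), PARP12 (1.36) and PARP10 (1.27) on the log2 scale. PARP9 and DTX3L, which form a ligase complex, are neighbours on chromosome 3. PARP10 shares its locus with other entries, and their sum rose by only 0.15 (adjusted p = 0.0737). The other PARP genes lay near 0, so the list's median was 0.18. Of 7 TRIM genes tested, 5 were called higher, led by TRIM14 (1.04) and PML (1.03), the scaffold of nuclear bodies.

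Among further interferon-induced genes 19 of 27 tested were called higher. XAF1, an antagonist of the caspase inhibitor XIAP, rose from 3.31, 2.15 and 2.13 to 33.4, 64.0 and 65.8. LAMP3, a lysosomal membrane protein, went from 293, 246 and 299 to 1313, 1414 and 1419. TRANK1 rose by 2.56, LGALS3BP by 2.09 and PLSCR1 by 1.62 (log2). EPSTI1 was at -0.39 and was not called. BATF2, a transcription factor of macrophages, was at 4.13, 0 and 1.06 in water and at 18.4, 17.1 and 15.8 with IFN.

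The transducers changed selectively. No tested receptor gene was called: IFNAR1 stood at 1434, 1533 and 1505 in water and at 1699, 1486 and 1598 with IFN, and these values overlapped. IFNGR1, IFNGR2 and IFNLR1 had log2 differences between -0.14 and 0.04. IFNK, an interferon gene of keratinocytes, passed the filter and was not called (1.74, adjusted p = 0.164). IFNAR2 and IRF9 share entries with other coding genes in the table and were not analysed here. The kinases JAK1 (-0.02), JAK2 (0.06) and TYK2 (0.001) were not called.

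STAT2, the subunit of this factor that activates transcription, rose by 0.72 on the log2 scale, from 1792, 1852 and 1740 scaled fragments to 2852, 2991 and 3028, with no overlap. STAT3 rose by 0.14 (adjusted p = 0.00671), a change that was lost without replicate 2 of the water group (adjusted p = 0.0502) and that turned to -0.34 on the deposited scale. Of 6 interferon regulatory factors tested, IRF7, the amplifier of interferon gene expression, was called higher, from 118, 128 and 123 to 348, 392 and 320. IRF1, a transcription factor best known from the IFN-gamma response, was at 107, 91.4 and 113 in water and at 125, 152 and 147 with IFN. Its values did not overlap and it missed the threshold (log2 difference 0.45, adjusted p = 0.0557). It was called with voom weights (adjusted p = 0.0297), quantile normalization (0.0309), a minimum of 50 scaled fragments (0.0459) and without replicate 1 of the IFN group (0.0488), while on the deposited scale it was at -0.025 (adjusted p = 0.871).

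The brakes on the pathway moved little. Of 19 tested, USP18 and PTPN1 were called higher, against 2.51% of all tested genes. PTPN1 rose by 0.12 (log2) in the main scaling and had a reversed sign on the deposited scale (-0.36). The PTPN1 call was lost without replicate 3 of either group (adjusted p = 0.0556 and 0.0576). SOCS1 had a log2 difference of 0.59 and SOCS3 of 0.13, both with overlapping groups and neither called.

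**Figure D2:**
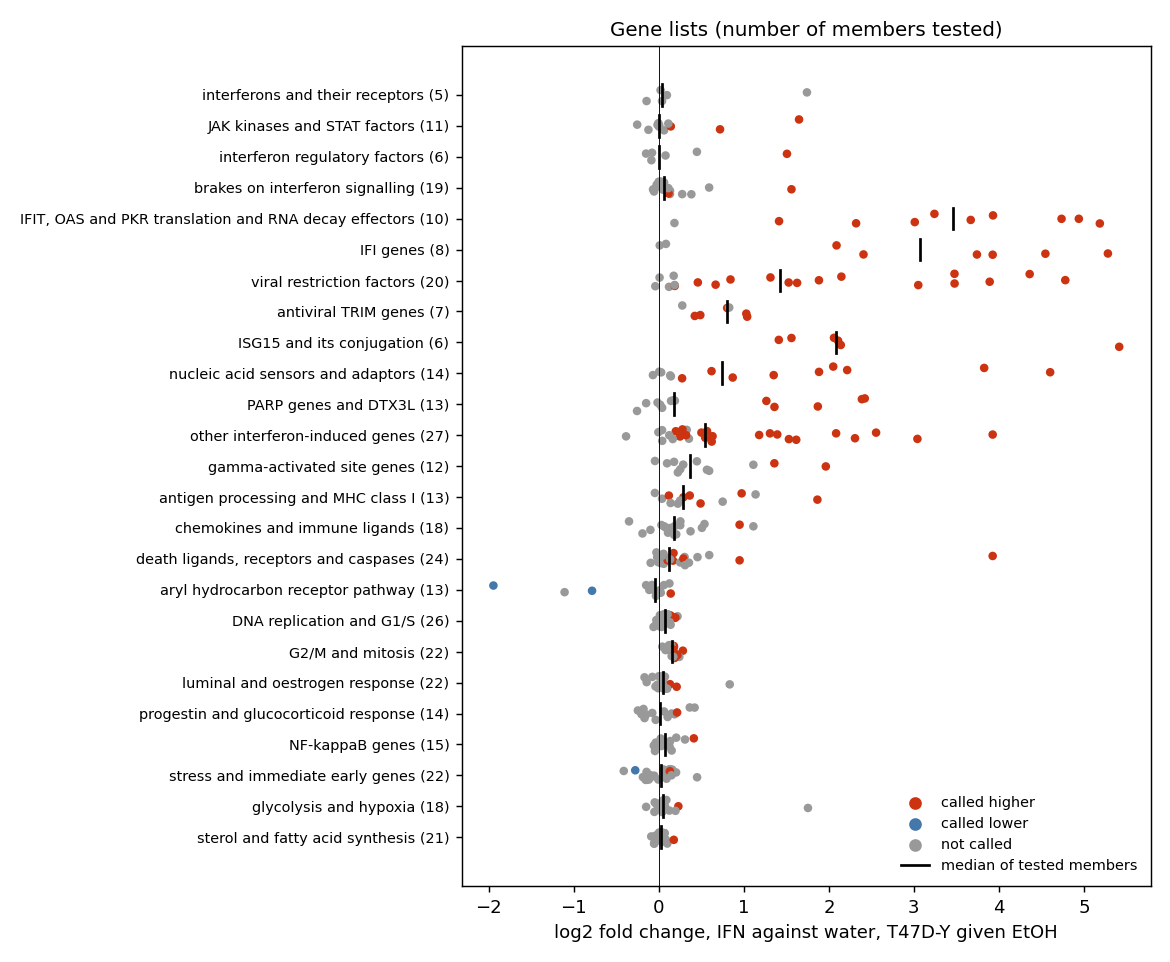
Log2 fold change with IFN in T47D-Y given EtOH (x axis) for the tested members of each gene list (rows), red where called higher, blue where called lower, grey where not called, with the list's median as a bar. Rises are gathered in the IFIT and OAS (median 3.46), IFI (3.07), ISG15 (2.08) and restriction factor (1.42) lists, and the 2 blue points farthest to the left are CYP1A1 and CYP1B1.

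Genes driven by gamma-activated sites, which respond to STAT dimers and are best known from IFN-gamma, had 2 of 12 tested members called higher. The share over all tested genes was 2.51%. GBP1 went from 22.3, 16.1 and 16.0 to 44.9, 56.7 and 42.1, and GBP4 rose by 1.96 (log2) from single-digit levels. CXCL10, a chemokine that attracts T cells, was at 23.9, 25.8 and 28.7 in water and at 60.8, 47.7 and 65.7 with IFN. Its groups did not overlap, but the log2 difference of 1.11 was not called (standard error 0.50, adjusted p = 0.253). It was called in a fit to the 6 libraries alone (adjusted p = 0.00499) and with voom weights (adjusted p = 0.00918). CD274, the gene of PD-L1, overlapped between groups (log2 difference 0.25, adjusted p = 0.856).

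Antigen presentation had 6 of 13 tested members called higher, against 2.51% of all tested genes. B2M (beta-2-microglobulin, the invariant chain of class I molecules) rose 1.96-fold and was at 1303, 1452 and 1501 in water and at 2688, 2822 and 2841 with IFN (log2 difference 0.97, standard error 0.05). NLRC5, which drives transcription of class I genes, rose by 1.87, and the proteasome activator subunits PSME2 and PSME1 rose by 0.49 and 0.36. Most MHC class I heavy-chain genes and the TAP genes were not analysed here. ERAP1, which trims peptides, rose by 0.29, but its locus as a whole did not pass the test (0.01, adjusted p = 0.889).

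Of 18 chemokine and immune ligand genes tested, TNFSF10, the gene of the death ligand TRAIL, was called higher. It went from 60.5, 46.3 and 43.7 to 95.7, 100 and 94.9 scaled fragments, with no overlap. Among death-related genes 6 of 24 tested were called higher, against 2.51% of all tested genes. They included XAF1 and TNFSF10 above, and BIRC2 (0.17), TNFRSF10B (0.17) and MCL1 (0.10) by small steps (log2) that have the opposite sign on the deposited scale. The calls of BIRC2 and MCL1 were each lost without any of 5 of the 6 libraries (adjusted p up to 0.225 and 0.238), and that of TNFRSF10B without replicate 1 of the IFN group (adjusted p = 0.0502).

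Some proliferation genes rose slightly. Of 22 G2/M and mitosis genes tested 9 were called higher (median log2 difference 0.15), and of 26 DNA replication genes 4 (median 0.07), none lower, against 2.51% of all tested genes called higher. MKI67, a marker of cycling cells, went from 12098, 11973 and 12095 to 14350, 14936 and 14734, a 1.22-fold rise with no overlap. CDK1 (0.21), NUSAP1 (0.22), TOP2A (0.18) and CCNB1 (0.18) rose by similar amounts. These directions hold on the scale that puts all libraries together by the median of ratios, and on the deposited scale each of the 5 genes had the opposite sign, since that scale moves the median of all tested genes by -0.47.

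The other lists without an interferon link had 1 or 2 called members each, in a background of 2.51% of all tested genes called higher and 1.93% lower. These were the luminal and oestrogen (2 of 22), progestin and glucocorticoid (1 of 14), NF-kappaB (1 of 15), stress (2 of 22), glycolysis (1 of 18) and sterol (1 of 21) lists. ESR1, the oestrogen receptor, was at 4418, 4191 and 4312 in water and at 4439, 4133 and 4745 with IFN, with overlap. CA12, a carbonic anhydrase in the glycolysis and hypoxia list, rose by 0.23 (log2), with the opposite sign on the deposited scale.

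The genes raised at least 2-fold lay together in the genome. On the loci of the authors' table (hg19), 35 of the 85 (41.2%) had another gene called higher and raised at least 2-fold within 100000 bases, against 1.67% of all tested genes. The clusters held the IFIT genes at chr10:90973325-91180758, the OAS genes at chr12:113344581-113455556, IFI44L and IFI44 at chr1:79085606-79129763, MX2 and MX1 at chr21:42733869-42831141, and SAMD9 and SAMD9L at chr7:92728828-92777682. Outside the lists, APOL3 and APOL1, neighbours of each other on chromosome 22, rose by 1.85 and 1.83 from means of 3.87 and 2.97, and TLDC2 beside SAMHD1 rose by 1.67. RP1-71H24.1, an unmatched entry in the OAS cluster, rose by 2.99. These were named after their values were seen, and fragments shared between entries at a locus could not be separated for those that overlap.

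In all, 25 genes raised at least 2-fold matched no single symbol of the interferon lists. Among them was the joint entry of IFITM1 and IFITM2, tightly related restriction factors. Both symbols stand in the restriction factor list, but the joint name matched neither. This entry rose by 4.91, from 31.5, 26.9 and 23.4 to 770, 882 and 888. RARRES3, a retinoid-induced phospholipase, rose by 1.62, APOL6 by 1.47 and DHRS2 by 1.25, and these too were named after their values were seen. ALB and GFRA1 were also among the 25, at 6.61, 14.0 and 3.19 (ALB) in water and 13.8, 41.4 and 36.8 with IFN, and with overlapping groups for both genes.

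ALB and GFRA1 had means of 34979.1 and 7863.3 in T47D-co given EtOH. With ARSJ they were the 3 genes at 1000 or more there and under 0.2% of that level in T47D-Y, a set chosen after the values were seen. Summed over the 3, T47D-Y libraries held 0.0213%, 0.0416% and 0.0206% of the T47D-co level in water and 0.0494%, 0.122% and 0.102% with IFN. The libraries given R5020 had the same order, with 0.0145% to 0.0374% in water and 0.063% to 0.0911% with IFN. A share of 0.122% of the T47D-co level with IFN would come to 187% of the rise for ALB and 218% for GFRA1. These genes helped to set that share, so their values were partly fixed by the choice. For TYRP1 it would come to 25.3% of the rise, and to at most 2.96% for the other 82 genes raised at least 2-fold. The share of 0.122% is that of a single library and is mostly ALB, so it sets no bound for other genes. Where these fragments came from was not tested.

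Falls were smaller than rises, and few were large. CYP1A1, a monooxygenase that is the classical target of the aryl hydrocarbon receptor (AHR), had the largest fall of any gene that keeps its locus to itself and has a mean of at least 50. It stood at 598, 591 and 580 in water and at 143, 179 and 138 with IFN, 3.85-fold lower (log2 difference -1.95, standard error 0.12, limma adjusted p = 3.97e-12). CYP1B1, a related monooxygenase and also an AHR target, fell from 7920, 7950 and 8097 to 4622, 4742 and 4546 (log2 difference -0.79). Of the 13 tested members of the AHR list these 2 were lower, AHR itself was higher by 0.14 (adjusted p = 0.0366) and the other 10 were not called. Over all tested genes 1.93% were called lower and 2.51% higher. The AHR call was lost without any of 5 of the 6 libraries and turned to -0.34 on the deposited scale. TIPARP (-0.15), NQO1 (-0.03) and ARNT (0.01) were not called.

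The promoter of CYP1A1 is shown because its transcript had this fall. The window is from RefSeq on GRCh38.p14, and the capitals mark GCGTG, the core that AHR with ARNT binds.
CYP1A1, chr15:74725551-74725615, minus strand: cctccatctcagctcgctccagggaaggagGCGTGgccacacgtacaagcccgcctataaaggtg
GCGTG is short and occurred on either strand in 36.3% of all promoter windows, in 49.0% of those of tested genes and in 48.5% of those of lowered genes, so a match here is common.

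Of the 30 genes lowered at least 2-fold only 4 were protein-coding: CYP1A1, CD4, SOX10 and FBN3, the last 3 at means under 50 in both groups and named after their values were seen. The named falls were mostly unmatched, pseudogene or small RNA entries. Small RNA genes fell in 8 of 48 cases (16.7%) and pseudogenes in 42 of 1095 (3.84%), against 213 of 12473 coding genes (1.71%). RNU12, a minor spliceosome RNA, was at 442, 326 and 343 in water and at 124, 217 and 216 with IFN, and its call was lost without replicate 1 of either group (adjusted p = 0.117 and 0.161). SNORD13 had a log2 difference of -1.41, but summed over the locus it shares with other entries the value was -0.004 (adjusted p = 0.976), and its call was lost without any of 3 libraries (adjusted p up to 0.119). Small structural RNAs together took 2.38%, 2.60% and 2.23% of fragments in the water libraries and 1.98%, 2.17% and 1.86% in the IFN libraries. These do not overlap, whereas in the libraries given R5020 they did (1.42% to 2.54% in water and 1.98% to 2.33% with IFN). In T47D-co they did not overlap either, with 2.65% to 2.78% in water and 2.13% to 2.37% with IFN given EtOH, and 2.75% to 3.06% against 1.63% to 1.79% given R5020. The part of this share in the falls was not tested. DMD-AS2, AF178030.2 and CTD-3126B10.1, the largest falls among named genes, share their loci with other entries. Summed over the locus they had log2 differences of 0.05, 0.12 and 0.02, and none was called.

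Genes of the translation machinery fell together, a pattern picked out after the values were seen. Of 70 ribosomal protein genes tested, 35 were called lower and none higher, against 1.93% of all genes called lower, and their median log2 difference was -0.20. RPLP0, of the ribosomal stalk, went from 6337, 6550 and 6464 to 4952, 4850 and 4497 (log2 difference -0.44, standard error 0.04, adjusted p = 8.4e-09). RPL3 was at 6689, 6763 and 6285 in water and at 5229, 5261 and 5069 with IFN. EEF2, the translocase of elongation, fell by 0.45, and EIF4B, an initiation factor, by 0.44. Leaving out any of the 6 libraries left 24 to 39 of the 70 called lower. The histone genes HIST1H4C (-0.74) and HIST1H3B (-0.42) were lower as well. They were named after their values were seen, and histone genes were not examined as a family. The cold-induced RNA-binding protein gene CIRBP (-0.39) was also lower.

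**Figure D3:**
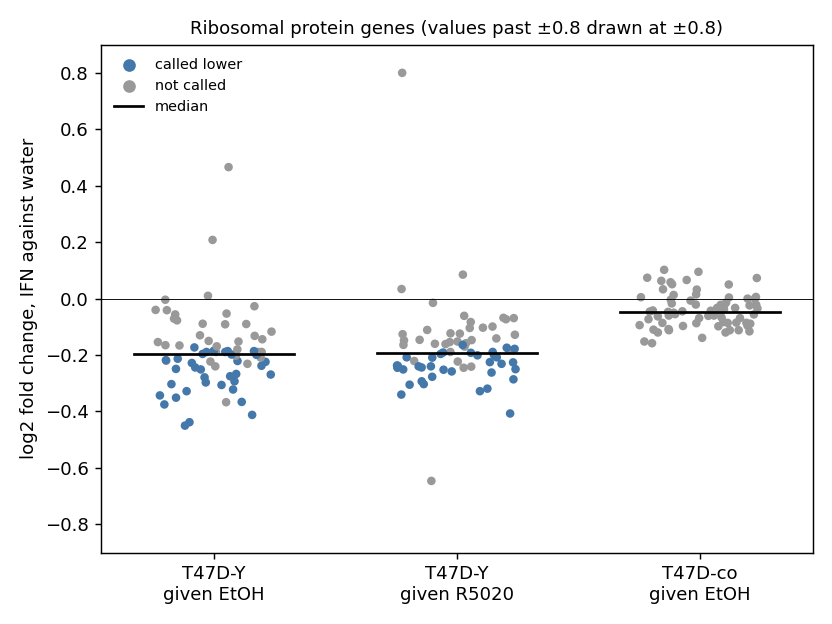
Log2 fold change with IFN for each of 70 ribosomal protein genes (points) in T47D-Y given EtOH, T47D-Y given R5020 and T47D-co given EtOH, blue where called lower, with medians as bars and 1 value past 0.8 drawn at 0.8. The medians are -0.20, -0.19 and -0.05, and 35, 35 and 0 genes were called lower.

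The T47D-Y libraries given R5020 share none with those above, and the IFN response was read again there. Both responses were tested in the same fit to all 24 libraries, with a shared estimate of each gene's spread. A gene with a small spread is therefore favoured in both, and the shares called again are not from independent tests. The deposited scaling put the water libraries of both sets in the same block and the IFN libraries of both in another. A difference between these blocks would recur in both readings and cannot be told apart from IFN. Given R5020, 618 genes (3.07%) were called higher and 343 (1.7%) lower. Of the 506 genes raised without R5020, 496 (98.0%) had the same direction and 363 (71.7%) were called higher again, against 3.07% of all tested genes. Of the 85 raised at least 2-fold 72 (84.7%) were called higher again. ISG15 averaged 13.9 and 582 scaled fragments there, next to 12.2 and 559 without R5020. Of the 390 lowered genes 183 (46.9%) were called lower again, but of the 30 lowered at least 2-fold 24 (80.0%) had the same direction, with a median log2 difference of -0.44, and only 4 (13.3%) were called, namely WDFY3-AS1, DMD-AS2, CYP1A1 and RP11-255A11.21. The 30 were chosen for a large fall without R5020, so a smaller change given R5020 is partly fixed by that choice. CYP1A1 fell by 2.30 and CYP1B1 by 0.95 (log2) in the libraries given R5020. Ribosomal protein genes fell in 35 of 70 cases there too.

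A test of the difference between these 2 responses called no gene (limma), with 693 of 20159 at an unadjusted p under 0.05. For IFI6 the difference was 0.17 on the log2 scale. Replicates 1 and 2 of the libraries given R5020 and water were low in mitochondrial transcripts, as was replicate 1 given water without R5020, while no IFN library was. Without all 4 low libraries of the series 308 genes were called higher and 207 lower in T47D-Y given EtOH, 225 higher and 100 lower in T47D-Y given R5020, and the number raised at least 2-fold without R5020 was 86.

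**Figure D4:**
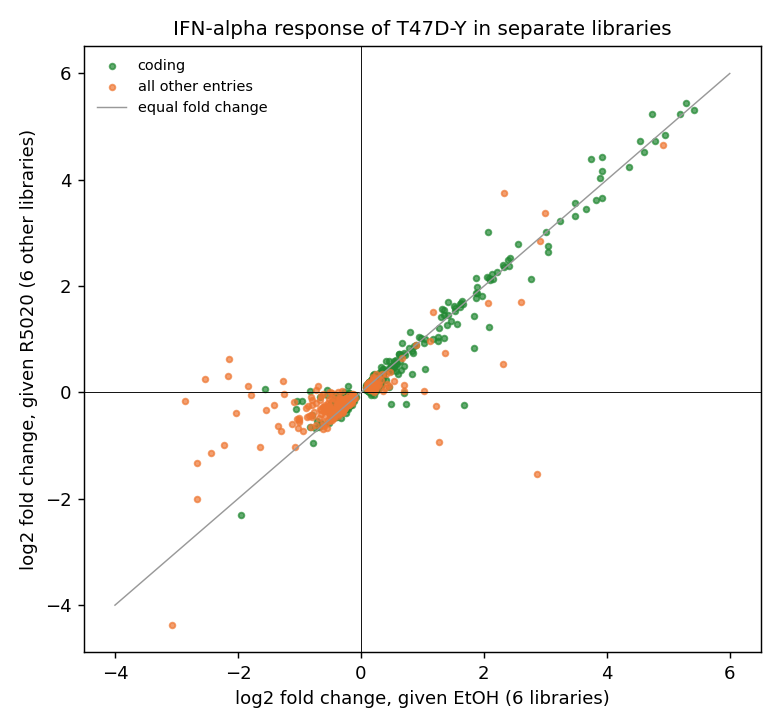
Log2 fold change with IFN for the 896 genes called in T47D-Y given EtOH (x axis) against the value in the separate libraries given R5020 (y axis), green for coding genes and orange for all other entries, with a line of equal change. Large rises lie along the line, and 25 of the 26 entries other than coding genes that fell at least 2-fold on the x axis had a smaller change on the y axis. Those 26 were chosen for a large fall on the x axis, so a smaller change on the y axis is largely fixed by that choice.

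Many of the strongly raised genes had larger fold changes in T47D-Y than in T47D-co. In T47D-co given EtOH 115 genes (0.57%) were called higher and 87 (0.432%) lower. The difference between the responses, tested directly, called 63 genes (0.313%) smaller or more negative in T47D-co and 13 (0.0645%) the other way. Among named genes raised at least 2-fold in T47D-Y, 23 of 48 had a called difference, and all 23 responses were smaller in T47D-co. Genes were named for their rise in T47D-Y, and 8 of the 23 also for this difference, so the count and its direction are a description and partly fixed by that choice. For 21 of the 23 the water level was higher in T47D-co, HERC6 and LGALS3BP being the exceptions. With IFN the mean was lower in T47D-co for 13 and higher for 10.

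SAMD9L had the largest of these differences (-2.82, adjusted p = 0.00212): it averaged 2.34 scaled fragments in T47D-Y and 21.1 in T47D-co in water, and 66.4 and 66.7 after IFN. For ISG15 the order was alike: with water it averaged 12.2 scaled fragments in T47D-Y against 65.5 in the other line, and with IFN 559 against 522 (difference of the log2 responses -2.44, limma adjusted p = 1.24e-07). IFI6 averaged 90.8 and 298.6 with water and 3553 and 3357 with IFN. DDX58 differed by -1.26, with 330.3 and 970.1 in water and 1220 and 1499 with IFN. LAMP3 rose by 2.31 in T47D-Y and by 2.30 in the other line, and its difference of -0.01 was not called. PARP14 (-0.37) and PLSCR1 (-0.27) were not called either.

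**Figure D5:**
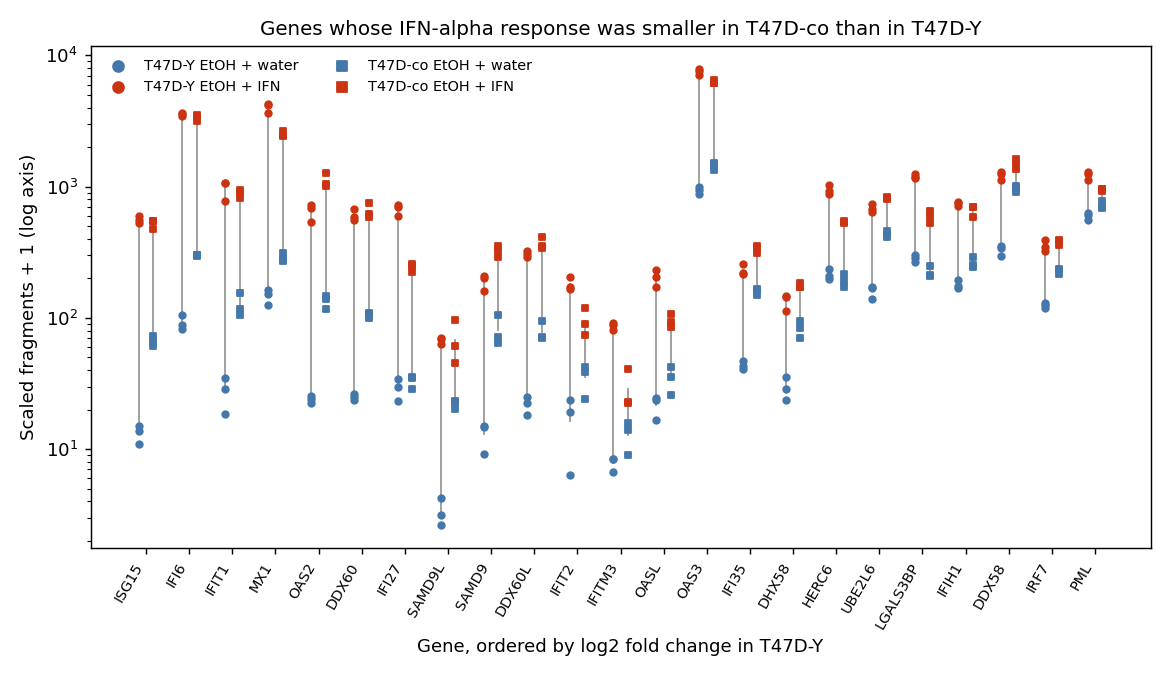
Scaled fragments plus 1 on a log axis for the 23 named genes whose response was smaller in T47D-co, in T47D-Y (circles) and T47D-co (squares) with water (blue) or IFN (red), each given EtOH, 3 libraries per group, the grey line joining the group means. For 21 of the 23 genes the blue squares lie above the blue circles on average.

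Falls differed between the lines as well. CYP1A1 fell by similar amounts, with a log2 difference of -1.95 in T47D-Y against -2.16 in the other line, and the gap between them was not called (-0.22, adjusted p = 0.834). CYP1B1 fell further in T47D-co, by 1.24 against 0.79 (difference -0.46, adjusted p = 2.09e-06). RPLP0 fell in T47D-Y (-0.44) and was at -0.09 in T47D-co, a difference of 0.34 that was called (adjusted p = 0.00102), as was that of CIRBP (0.34, adjusted p = 0.00897). No ribosomal protein gene was called in T47D-co, yet only RPLP0 of the 70 had a called difference between the lines.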

How the data were processed

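RNA from 24 cultures (8 groups of 3 replicates) was sequenced on an Illumina MiSeq, per the labels' protocols. The authors aligned with TopHat2 2.0.12 and used Cufflinks 2.2.1 on hg19, per the submitters' processing notes. The deposited values are a signal: estimated fragments per gene divided by a size factor, scaled in 4 separate blocks of 6 libraries. Size factors were recovered from the steps of low values and all libraries were put on one scale by the median of ratios over 14209 genes, giving scaled fragments. Values were whole multiples of 1 fragment (within 0.05) for 97.39% to 98.6% of entries alone at their locus and for 58.92% to 62.07% of all entries, so no count model was used. Of 25541 entries, 28 with a repeated symbol were left out. The filter on low values, 10 scaled fragments or more in no fewer than 3 libraries, left 20159 for the tests.

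Limma 3.58.1 (R 4.3.3) was fitted with a variance trend to log2(scaled fragments + 1), with 8 group means and all 24 libraries, two-sided, adjusted by Benjamini-Hochberg over all tested genes and called at 0.05. Fold changes understate low genes. The fit was tested on simulated data. Members and lists were chosen with earlier results of these data known. Named genes were the 20 largest rises and 20 largest falls (called, mean of at least 50 in a group, no overlap, a single name), up to 6 called members of each list, members that define a list, and up to 8 genes per direction in the 2 differences between responses. Some genes that met this rule are not reported here and are left out of counts over named genes. Genes outside this rule are named as chosen after their values were seen. Alternatives were the deposited scale, quantile normalization, other pseudocounts and filters, voom weights, fewer libraries, the replicate number as a block, and sums over a locus. Replicate numbers did not pair the samples.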

Additional observations from a re-analysis of the deposited data

Results flagged for a closer look

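For 37 of the named genes the IFN response given EtOH differed between T47D-co and T47D-Y in a limma test of the difference itself (Benjamini-Hochberg adjusted p under 0.05 over all 20159 genes). Values are the log2 response in T47D-co minus that in T47D-Y, with 3 libraries in each of the 4 groups. The response was smaller or more negative in T47D-co for 29 of them. Differences of at least 2-fold were seen for SAMD9L (-2.82), ISG15 (-2.44), IFIT1 (-2.35), IFITM3 (-2.35), IFIT2 (-2.23), DDX60 (-1.98), SAMD9 (-1.86), IFI6 (-1.8), OASL (-1.75), OAS2 (-1.69), IFI27 (-1.67), MX1 (-1.66), DDX60L (-1.59), IFI35 (-1.34), DDX58 (-1.26), UBE2L6 (-1.2), DHX58 (-1.12). Smaller ones were seen for OAS3 (-0.885), IRF7 (-0.777), IFIH1 (-0.723), LGALS3BP (-0.678), HERC6 (-0.664), PML (-0.631), B2M (-0.506), CYP1B1 (-0.457), CA12 (-0.344), TRIM25 (-0.327), STAT2 (-0.32), AHR (-0.249). For 8 genes the difference was positive, with a lower value in T47D-Y than in T47D-co: CIRBP (0.342), RPLP0 (0.343), RPL10AP6 (0.562), NPM1P39 (0.899), NCKAP1L (0.929), AL590867.1 (1.74), CTD-3126B10.1 (2.11), DMD-AS2 (2.83). CTD-3126B10.1 and DMD-AS2 share their loci with other entries, over whose sum neither was called in T47D-Y, and NCKAP1L was not called in T47D-Y (-0.38, adjusted p = 0.141). When each of the 12 libraries was left out in turn, 24 of the 29 negative differences and 2 of the 8 positive ones, CIRBP and RPLP0, were called every time. AHR, DHX58, IFIT2, LGALS3BP and OASL lost the call in 2 to 9 of the 12 fits (adjusted p up to 0.157). The other 6 positive differences lost it in 8 to 10 of the 12 fits (adjusted p up to 0.178).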

How the results depend on the processing

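On the deposited scale, whose blocks separate IFN from water libraries and move the median of all tested genes by -0.47, 115 genes were called higher and 14614 lower in T47D-Y given EtOH, 100 and 14691 in T47D-Y given R5020, and 9456 had a larger response in T47D-co. There 609 genes were lowered at least 2-fold, 68 ribosomal protein genes were called lower, and these named genes had the opposite sign (log2): AHR (-0.337), ARNT (-0.463), BIRC2 (-0.304), CA12 (-0.247), CALR (-0.359), CCNB1 (-0.299), CCND1 (-0.345), CDK1 (-0.272), ERAP1 (-0.187), ERRFI1 (-0.261), ESR1 (-0.435), FOXM1 (-0.291), HSPA5 (-0.347), IFNAR1 (-0.381), IFNGR1 (-0.438), IFNGR2 (-0.456), INSIG1 (-0.301), IRF2 (-0.398), JAK2 (-0.414), MCL1 (-0.373), MCM4 (-0.337), MKI67 (-0.194), NUSAP1 (-0.258), PCNA (-0.284), PSME1 (-0.112), PTPN1 (-0.362), RRM2 (-0.286), STAT3 (-0.336), TNFAIP3 (-0.062), TNFRSF10B (-0.31), TOP2A (-0.3), TRIM56 (-0.053), TYK2 (-0.475). IRF1 (-0.025), CD274 (-0.21) and SOCS3 (-0.334), called on neither scale, had the opposite sign on the deposited scale too. Summed over their loci, AF178030.2 (0.119), CTD-3126B10.1 (0.017) and DMD-AS2 (0.053) also changed sign. On the deposited scale the AHR difference between the lines turned to 0.049. Quantile normalization gave 25 genes with a larger response in T47D-co, against 13. A minimum of 50 scaled fragments, or a fit to the 6 libraries alone, left 15 genes lowered at least 2-fold, against 30. Without the 4 libraries low in mitochondrial transcripts 308 genes were called higher and 207 lower, 13 were lowered at least 2-fold, and with R5020 225 and 100 were called.

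Leaving out each library in turn gave 322 to 482 genes called higher and 243 to 370 lower in T47D-Y given EtOH, 77 to 93 raised and 21 to 50 lowered at least 2-fold, 82 to 87 interferon-list members called higher and 24 to 39 ribosomal protein genes called lower. It gave 334 to 597 higher and 180 to 349 lower with R5020, 5 to 31 larger and 49 to 76 smaller responses in T47D-co, and 0 to 2 and 0 to 0 for the difference between T47D-Y given R5020 and EtOH. Of the 104 named genes called, 59 kept direction and call in every alternative, 72 in every one but the deposited scale, and 81 were called in all 6 fits without a library of the comparison. The other 23 were AHR, BIRC2, CALR, CCND1, DDIT4, EIF4BP9, ERAP1, ERRFI1, HMGN2P4, IFI16, LMOD1, MCL1, MIR3648, PTPN1, RNU12, RP1-89D4.1, RP11-1149O23.3, RP11-829H16.2, SNORD13, STAT3, TLR3, TNFAIP3, TNFRSF10B. Of the 48 named genes raised at least 2-fold 45 kept their call in every alternative, the exceptions being IFI16, TLR3 and PARP10. The fit to the 6 libraries alone lost the calls of AF178030.2, AHR, BIRC2, CALR, MCL1, PTPN1, STAT3 and TNFRSF10B. The cause of these changes was not tested.

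With the replicate block 507 genes were called higher and 385 lower in T47D-Y given EtOH. Same-numbered water and IFN libraries correlated at -0.028, -0.0026 and 0.0085 after removal of group means. Depth limited low genes. The filter read all 24 libraries, so 737 tested genes were under 10 scaled fragments in all 6 libraries here, 4 of the genes raised and 3 of those lowered at least 2-fold among them.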
